A study of Mus musculus with 6 samples.

Results

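The genes described here are 10 genes of the NRF2 antioxidant pathway and its small Maf partners, measured in mouse aorta. They are Hmox1, the small Maf genes Maff, Mafk and Mafg, the factor Nfe2l2 (which encodes NRF2), its inhibitor Keap1, and the antioxidant targets Nqo1, Gclm, Gclc and Txnrd1. They were taken by symbol from a table of 55335 genes, where each of the 10 had a single row. The group was put together because Hmox1 and Maff were clearly higher at 6 months, that is, the genes were chosen by their read counts in these same libraries, so the age difference of the members is given as a description, with no test. RNA was sequenced from the aorta of wild-type c57b6l mice, 3 aged 6 weeks (young) and 3 aged 6 months (aged), with 1 library per mouse. The names young and aged are those of the paper, and no mouse older than 6 months was sequenced. The mice are described as male, and no treatment is named. Fat around the vessel was dissected away before freezing, and RNA came from the whole vessel, so fewer cells of a type and less RNA per cell cannot be told apart.

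NRF2 is a transcription factor that Keap1 holds at a low level by directing its degradation. Oxidants and electrophiles release NRF2 from Keap1, and NRF2 then pairs with a small Maf protein to bind antioxidant response elements near its target genes. Small Maf proteins lack an activation domain of their own and also pair with the repressor Bach1, which heme removes from DNA. Heme oxygenase 1, the product of Hmox1, breaks heme down to biliverdin, iron and carbon monoxide, and is known in the vessel wall from smooth muscle, endothelium and macrophages.

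The antioxidant response element core was searched as TGACNNNGC on both strands of the promoter windows that RefSeq gives for GRCm38.p6, from 250 bases before to 50 bases after each start. Windows were found for 8 of the 10 members, all but Hmox1 and Gclc. At least 1 window held the core in 6 of these 8 genes (75%), against 14.0% of the 27025 genes that have a window and 17.0% of 11317 tested genes with a window. Of the other NRF2 target genes listed further on, 9 of 40 with a window (22.5%) held it, and of the NRF2 regulators 0 of 10. Genes with several windows have more chances of a match, and 6 of 12 member windows (50%) held the core against 12.4% of all 32851 windows. The match is a description of letters and not a sign of binding. The sites found in the small Maf genes, Nfe2l2 and 2 antioxidant targets are printed with the core in capitals. The choice of genes did not read these sequences, but it named NRF2, its small Maf partners and antioxidant targets. NRF2 binds this element near its targets, so the share among the members is not independent of the choice, and nothing is read from it. Each stretch is read 5′ to 3′ on the strand of its gene, and the core lies on the opposite strand where the capitals begin with GC.
Maff: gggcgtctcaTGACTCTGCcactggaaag
Mafk: gatcccggaaGCGGTGTCAgtactgggga
Mafg: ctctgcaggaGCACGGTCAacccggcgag
Nfe2l2: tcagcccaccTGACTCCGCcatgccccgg
Gclm: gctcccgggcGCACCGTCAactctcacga
Txnrd1: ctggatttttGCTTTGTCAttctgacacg

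The Maff stretch lies at chr15:79346499-79346527 on the plus strand, and its core starts 112 bases before the first annotated start, in sequence with no annotated gene. The Mafk stretch (chr5:139791513-139791541, plus strand) has its core 13 bases before the RefSeq start, inside an exon of Mafk in GENCODE M21. The Mafg stretch (chr11:120633751-120633779, minus strand) has it 222 bases before the start, in an exon of the neighbouring Gm17586. The Nfe2l2 stretch (chr2:75704885-75704913, minus strand) has it 240 bases before the start, in an exon of E030042O20Rik. The Gclm stretch (chr3:122245413-122245441, plus strand) has it 134 bases before the start, with no annotated gene. The Txnrd1 stretch (chr10:82859104-82859132, plus strand) has it 92 bases before the start of 1 of 3 Txnrd1 windows, in an intron of Txnrd1. In Nqo1 and Keap1 the letters were not found in this window. The AP-1 element TGANTCA, which overlaps the core where the letters TGACTCA are followed by GC, was in 0 of 8 member genes and in 8.97% of all genes. It was in 6.39% of tested genes with a window, in 11 of 40 other NRF2 target genes (27.5%) and in 0 of 10 regulators. With so few member genes nothing is read from their 0. The 250 bases before the first Maff start, at chr15:79346371-79346620 on the plus strand, are shown because Maff is the small Maf gene whose level differed between the ages:
Maff: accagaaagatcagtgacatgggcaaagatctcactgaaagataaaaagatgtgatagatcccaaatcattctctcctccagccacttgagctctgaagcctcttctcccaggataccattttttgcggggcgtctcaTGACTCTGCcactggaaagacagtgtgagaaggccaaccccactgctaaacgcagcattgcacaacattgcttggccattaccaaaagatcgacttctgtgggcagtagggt

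The libraries held between 31049632 and 45832185 counts on genes, and 16612 genes passed the filter on low counts, all 10 members among them. Values are CPM, counts brought to a common library total after TMM scaling. The quasi-likelihood test of edgeR for age, adjusted by Benjamini and Hochberg's method over the 16612 genes, called 0 genes (0% higher and 0% lower, lowest adjusted p = 0.189). At an unadjusted p below 0.05 edgeR had 1723 genes, DESeq2 called 338 after adjustment, and limma on FPKM called 0. Young replicate 1 stood apart in a sex-linked RNA, with 14806 counts of Xist against 7 to 24 in the others and 53 counts of the Y-linked Ddx3y against 1488 to 2117, although the mice are described as male. The young group may thus be mixed in sex, and sex and age cannot be fully told apart with this library included. Aged replicate 2 lay at -23.5 on the first principal component, among the young libraries (-26.2 to -13.1) and away from the other aged libraries (38.2 and 43.6). The share of counts on genes of the mitochondrial genome was 14.9% to 21.2% in young and 23.1% to 30.4% in aged aorta. Scaling by total counts instead of TMM shifted the all-gene median of the log2 fold change from 0.02 to -0.22.

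Hmox1 (ENSMUSG00000005413, chromosome 8 of GRCm38 from 75093621 to 75100589, plus strand) had 6.03, 5.78 and 6.50 CPM in young replicates 1, 2 and 3. It had 15.7, 19.0 and 23.5 CPM in aged replicates 1, 2 and 3. The groups did not overlap, and the lowest aged library was 2.42-fold above the highest young one, while the young libraries lay within 1.12-fold of each other. These values rest on 201 to 292 counts in young and 523 to 715 counts in aged libraries. The mean was 6.10 ± 0.366 CPM in young and 19.4 ± 3.92 CPM in aged aorta (SD, n = 3 each), which is 3.18-fold higher in aged aorta (log2 fold change 1.67, standard error 0.21). Relative to the median of all genes the log2 fold change was 1.65, and between 1.33 and 1.79 under 17 other settings. On the same scale it was 1.62 without young replicate 1 and 1.70 without aged replicate 2.

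Maff (ENSMUSG00000042622, chromosome 15 from 79346621 to 79359076, plus strand) encodes the small Maf protein known as the most inducible of the family by stress and inflammatory signals. It had 12.9, 16.2 and 16.3 CPM in the young libraries and 32.8, 45.4 and 47.0 CPM in the aged ones. The lowest aged library was 2.02-fold above the highest young one. The means were 15.1 ± 1.96 and 41.7 ± 7.79 CPM (SD, n = 3 each), which is 2.76-fold higher in aged aorta (log2 fold change 1.47, standard error 0.20). Relative to the median of all genes it was 1.45, and between 1.22 and 1.60 under the other settings. It was 1.33 without young replicate 1 and 1.41 without aged replicate 2. In both Hmox1 and Maff, aged replicate 1 was the lowest of the aged libraries.

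**Figure D1:**
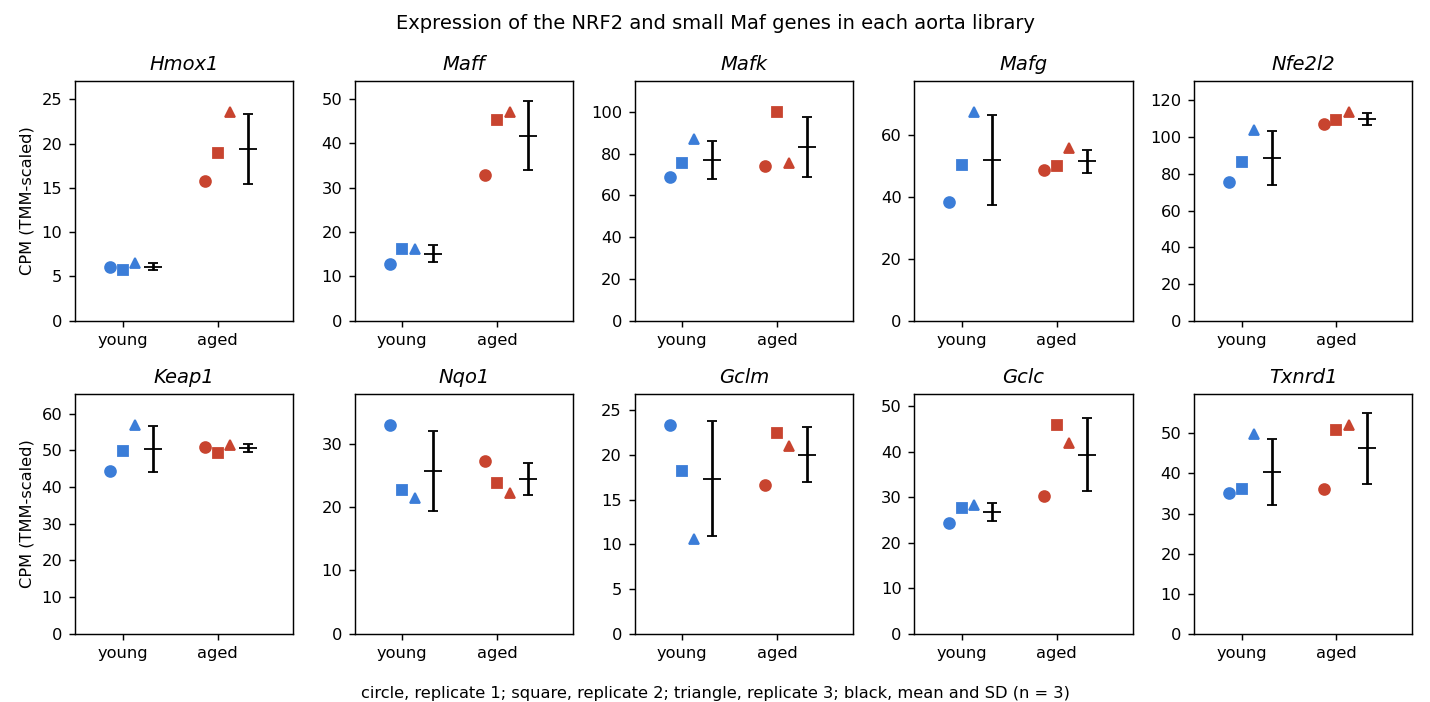
Expression of the 10 genes in each aorta library, as CPM after TMM scaling on a linear axis from 0, with young libraries in blue, aged libraries in red, and the mean and SD of 3 libraries in black. Hmox1 (15.7 to 23.5 CPM) and Maff (32.8 to 47.0 CPM) lie well above the young libraries in every aged library, while Mafk, Mafg, Keap1, Nqo1, Gclm and Txnrd1 overlap.

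The other small Maf genes differed little between the ages. Mafk had 68.7, 75.4 and 86.9 CPM in young and 74.0, 99.8 and 75.7 CPM in aged libraries, and the groups overlapped (log2 fold change 0.11, standard error 0.18). Mafg had 38.5, 50.6 and 67.5 CPM in young and 48.9, 50.04 and 55.8 CPM in aged libraries (log2 fold change -0.02, standard error 0.22). Its young libraries spanned 1.76-fold and enclosed all 3 aged values. Mafk (chromosome 5 from 139791513 to 139802653, plus strand) overlaps Tmem184a on the opposite strand. Mafg (chromosome 11 from 120625117 to 120633600, minus strand) overlaps Sirt7 on its own strand. How reads in such shared stretches were counted is not given in the sources used here, which holds also for Nfe2l2, Keap1, Gclm and Txnrd1 and the gene models that overlap them.

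FPKM divides counts by gene length and library total, which allows the 3 small Maf genes to be compared with each other. Of their summed FPKM, Maff made up 16.8%, 18.1% and 15.4% in the young libraries and 31.4%, 33.7% and 38.2% in the aged ones. Its mean share was 16.8% ± 1.35 in young and 34.4% ± 3.49 in aged aorta (SD, n = 3 each), with no overlap. Mafk was the largest component in every library, at 55.0% to 59.9% in young and 40.9% to 49.2% in aged aorta. Mafg made up 26.3% ± 3.20 in young and 19.9% ± 2.39 in aged aorta (SD, n = 3 each), above Maff in every young library and below it in every aged one. The summed FPKM was 34.0 ± 6.26 in young and 38.9 ± 5.08 in aged aorta (SD, n = 3 each), and the ranges overlapped. These shares restate the difference in Maff and are no separate evidence of it. Since they are ratios within a library, they do not depend on how libraries were scaled.

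**Figure D2:**
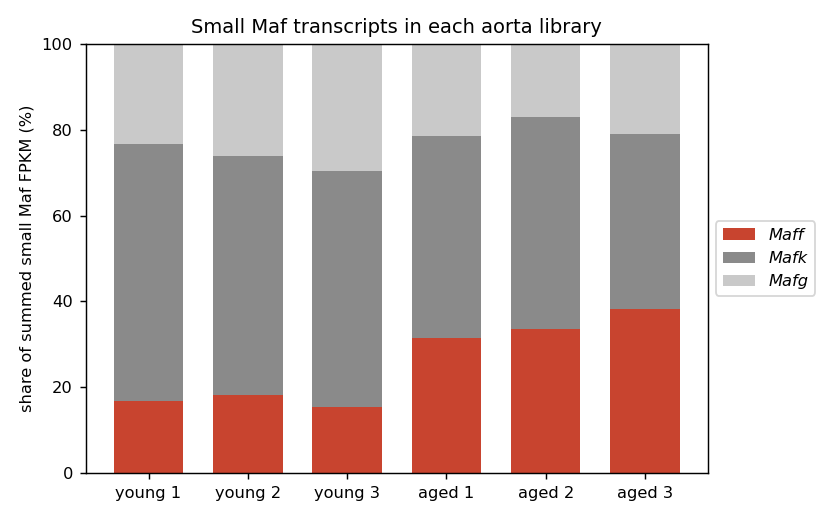
Share of the summed small Maf FPKM taken by Maff (red), Mafk (dark grey) and Mafg (light grey) in each of the 6 aorta libraries, in percent. Maff lies between 15.4% and 18.1% in young and between 31.4% and 38.2% in aged libraries.

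Nfe2l2 (chromosome 2 from 75675513 to 75704641, minus strand) had 75.4, 86.2 and 104 CPM in young and 107, 109 and 114 CPM in aged libraries. The aged libraries were all above the young ones, by as little as 1.03-fold between the nearest libraries (log2 fold change 0.31, standard error 0.16). With totals in place of TMM the groups overlapped, at 79.7 to 115 CPM in young and 100.5 to 102 CPM in aged libraries. Keap1 (chromosome 9 from 21229730 to 21239361, minus strand) had 44.3, 49.9 and 56.8 CPM in young and 50.9, 49.3 and 51.5 CPM in aged libraries, a log2 fold change of 0.01 (standard error 0.15). As a ratio of FPKM, which needs no scaling between libraries, Nfe2l2 over Keap1 was 2.11, 2.14 and 2.27 in young and 2.61, 2.75 and 2.73 in aged libraries. The ratio was thus higher in each aged library than in each young library. It is 1 of many possible ratios among the members, and how many others separate the ages was not counted. In FPKM each gene alone overlapped, Nfe2l2 at 18.9 to 27.4 in young and 24.1 to 24.6 in aged libraries. Keap1 was at 8.96 to 12.1 FPKM in young and 8.83 to 9.22 FPKM in aged libraries. Both genes are regulated largely at the protein level, which was not measured here.

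Of the 4 antioxidant targets among the members, Gclc, Gclm and Txnrd1 had log2 fold changes above 0 and Nqo1 below 0. Gclc, the catalytic subunit of the enzyme that limits glutathione synthesis (chromosome 9 from 77754535 to 77794485, plus strand), had 24.4, 27.6 and 28.2 CPM in young and 30.3, 45.8 and 41.9 CPM in aged libraries. Its groups did not overlap (log2 fold change 0.56, standard error 0.19), but aged replicate 1 lay only 1.07-fold above the highest young library, and by total counts the groups overlapped. Gclm, the modifier subunit of the same enzyme (chromosome 3 from 122245557 to 122270732, plus strand), had 23.3, 18.2 and 10.6 CPM in young and 16.7, 22.5 and 21.02 CPM in aged libraries. Its young libraries spanned 2.20-fold, the widest of the 10 genes in either group, and its log2 fold change was 0.21 (standard error 0.30). The ratio of Gclc to Gclm FPKM accordingly ran from 1.76 to 4.49 in young and from 3.05 to 3.42 in aged aorta.

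Nqo1, a quinone reductase and a classical NRF2 target (chromosome 8 from 107388225 to 107403206, minus strand), had 32.9, 22.7 and 21.4 CPM in young and 27.2, 23.8 and 22.2 CPM in aged libraries. Its log2 fold change was -0.07 (standard error 0.21), and 0.16 without young replicate 1, the highest library. Txnrd1, the cytosolic thioredoxin reductase (chromosome 10 from 82833951 to 82897712, plus strand), had 35.0, 36.2 and 49.8 CPM in young and 36.0, 50.8 and 52.0 CPM in aged libraries (log2 fold change 0.20, standard error 0.22). In these genes the differences were no larger than the spread between replicates.

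Over the 10 members, 8 had a log2 fold change above 0, where 52.1% of all genes tested did, and their median was 0.20 against 0.02 for all genes. CPM was higher in every aged than in every young library for 4 of them (Hmox1, Maff, Nfe2l2 and Gclc), where this held for 7.74% of all genes tested. None of the 10 was lower in every aged than in every young library (0, against 8.78% of all genes). By total counts it held for Hmox1 and Maff, 2 of the 10, and for 3.05% of all genes. Since Hmox1 and Maff were the reason for the choice, nothing is read from these counts. Without them the other 8 genes lay between -0.07 and 0.56, with a median of 0.15. Relative to the median of all genes, Mafk, Mafg, Keap1, Nqo1 and Gclm changed sign under at least 1 of the 17 other settings, while Hmox1, Maff, Nfe2l2, Gclc and Txnrd1 stayed positive under each of them. Txnrd1 lay between 0.03 and 0.36 on that scale.

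**Figure D3:**
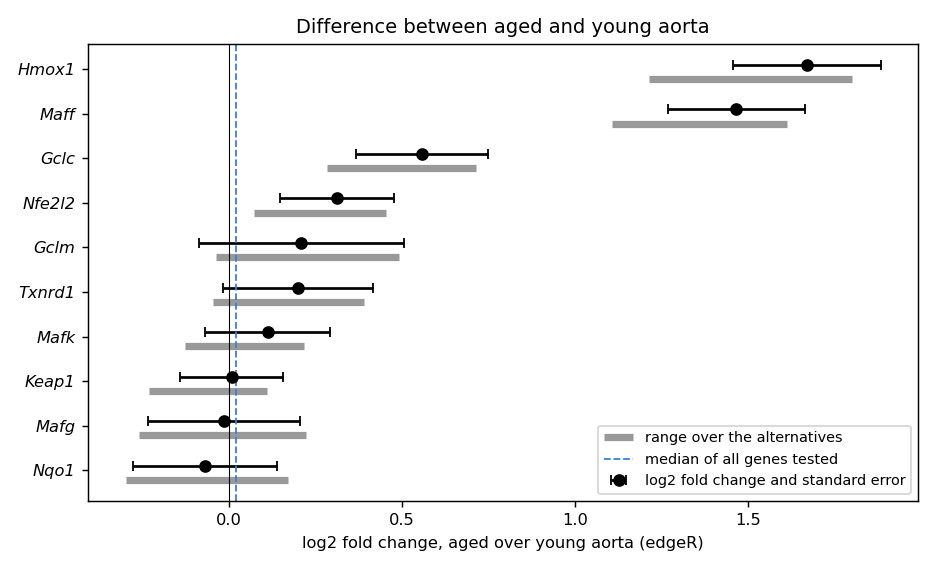
Log2 fold change of aged over young aorta for the 10 genes by edgeR (black points, bars are 1 standard error), with the range over 17 other settings in grey and the median of all 16612 genes tested as a dashed line at 0.02. Hmox1 (1.67) and Maff (1.47) lie apart from the other 8 genes, which lie between -0.07 and 0.56.

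The pooled SD of log2 CPM within groups was 0.13 for Keap1, 0.17 for Nfe2l2 and 0.21 for Hmox1, against a median of 0.35 over all genes tested. That median was not matched for abundance and takes in genes with few counts. Hmox1 and Maff were picked for a clear difference in these libraries, which favours a small spread, so nothing is read from theirs. Only Gclm exceeded that median among the 10, with an SD of 0.44. Per length, Nfe2l2 was the most abundant of the 10 with 23.5 ± 2.83 FPKM over the libraries (SD, n = 6), followed by Mafk with 18.6 ± 2.90 and Nqo1 with 14.6 ± 2.93 (SD, n = 6 each). Keap1 (9.74), Maff (9.56), Mafg (8.37), Gclc (7.85), Hmox1 (6.32) and Txnrd1 (5.51) came next in mean FPKM. Gclm was the lowest with 2.66 ± 0.640 FPKM (SD, n = 6). From Nfe2l2 down to Txnrd1 the range over the 6 libraries overlapped between every pair of neighbours, and only Txnrd1 and Gclm did not overlap. Ordered within young aorta, Maff was in place 7 and Hmox1 in place 9, and within aged aorta they were in places 3 and 5. Mean FPKM was 5.68 ± 0.851 in young and 13.4 ± 2.32 in aged aorta for Maff, and 3.39 ± 0.261 and 9.24 ± 1.59 for Hmox1 (SD, n = 3 each).

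Across the 6 libraries, Maff was in place 4 of 14084 genes by Pearson correlation of log2 CPM with Hmox1 (r = 0.98), where only genes averaging 1 CPM or more were compared. Above it stood Eps8 (0.99), Uhrf1 (0.99) and Nars (0.99), and Dnajb9 (0.98) came next, in place 5. Hmox1 in turn was in place 10 for Maff. For Maff the closest were Uhrf1 (0.99), Chst11 (0.99), Pgf (0.99), Dnajb9 (0.99) and Itih5 (0.99). Gclc was at place 200 for Hmox1 (0.88) and at place 58 for Maff (0.93), and Nfe2l2 at places 578 (0.80) and 311 (0.83). Txnrd1 was at 0.53 with Hmox1 and 0.57 with Maff. Mafk, Mafg, Keap1, Nqo1 and Gclm had values between -0.33 and 0.43 with either gene. The 6 points share their age group in sets of 3, so these values describe likeness only. Hmox1 and Maff were both picked for being higher at 6 months in these libraries. A high correlation and place of each with the other was thus built into the choice, and nothing is read from it.

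Hmox2, the constitutive heme oxygenase, had 31.4, 27.2 and 30.2 CPM in young and 51.2, 37.1 and 28.8 CPM in aged libraries, with overlap. It was chosen for this account after its values were seen. The ratio of Hmox1 to Hmox2 FPKM was 0.243, 0.267 and 0.271 in young and 0.388, 0.646 and 1.03 in aged libraries. Hmox1 thus reached the level of Hmox2 in aged replicate 3 and stayed below it in the other 5 libraries. Bach1, the repressor of Hmox1 that heme inactivates, was also picked after its values were seen. It had 15.2, 13.1 and 18.9 CPM in young and 18.3, 20.0 and 21.7 CPM in aged libraries, with overlap (log2 fold change 0.35, standard error 0.19).

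Beyond the members, 85 further genes of the pathway and of heme handling were listed, of which 82 were found and 74 were tested. The 3 others, Dpp3, Flvcr1 and Flvcr2, were not analysed here. Of the 74, edgeR called 0 in either direction after adjustment over all genes, as for all genes tested (0%). Without adjustment, 17 genes (23.0%) were higher and 0 lower in aged aorta at p below 0.05, where 5.56% of all genes tested were higher and 4.82% lower. Limma on FPKM called 0 of the 74. DESeq2 called 3 higher and 0 lower (1.33% and 0.704% of all genes). In all, 64 of the 74 had a log2 fold change above 0, with a median of 0.31, against 52.1% and 0.02 for all genes tested. This count and those of the lists below are with TMM. They depend on the scaling, since total counts moved the median of all genes to -0.22. Nothing particular to the list is read from these counts.

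The genes that DESeq2 called were Gsta3, Ugt1a7c and Ftl1. Gsta3, a glutathione transferase, had 2.08, 4.37 and 3.15 CPM in young and 11.6, 5.70 and 19.3 CPM in aged libraries (log2 fold change 1.93, standard error 0.49, adjusted p = 0.377 by edgeR and 0.00873 by DESeq2). Ugt1a7c, a glucuronosyl transferase, had 17, 0 and 7 counts in young and 139, 58 and 226 counts in aged libraries (adjusted p = 0.372 by edgeR and 0.000123 by DESeq2). It shares its last exons with the other genes of the Ugt1a cluster, so its counts depend on how shared reads were assigned. Ftl1, the ferritin light chain that stores iron, had 218, 210 and 157 CPM in young and 495, 281 and 526 CPM in aged libraries (log2 fold change 1.16, standard error 0.27, adjusted p = 0.372 by edgeR and 0.00913 by DESeq2). Ferritin genes have near-identical copies elsewhere in the genome, which makes these counts uncertain as well. Without aged replicate 2, edgeR called 110 genes, 100 of them higher in aged aorta (0.583% of 17147), and Ftl1 was the listed gene among them.

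**Figure D4:**
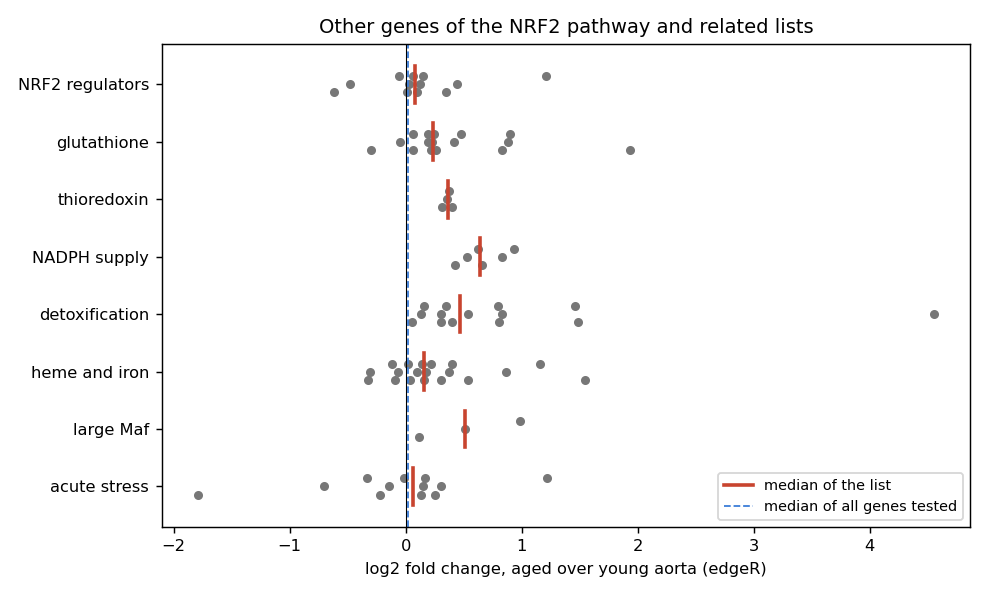
Log2 fold change of aged over young aorta by edgeR for the tested genes of each list (grey points), the median of each list (red) and the median of all genes tested (dashed). The NADPH supply list has a median of 0.64 (-0.20 without aged replicate 2), the large Maf list 0.51 and the detoxification list 0.47. The large Maf list has only 3 tested genes, and its median is the value of Mafa, which reached at most 1.17 CPM (standard error 0.42). The acute stress list (median 0.06) and the NRF2 regulators (median 0.08) lie near the median of all genes.

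Among the regulators of NRF2, 9 of 12 tested genes had a log2 fold change above 0, with a median of 0.08. Sqstm1, which takes Keap1 into autophagosomes, had 329, 255 and 240 CPM in young and 415, 330 and 377 CPM in aged libraries (log2 fold change 0.44, adjusted p = 0.472 by edgeR). Nfe2l1, a relative of NRF2, jumped between libraries, from 47.6, 227 and 258 CPM in young to 222, 42.8 and 82.4 CPM in aged aorta (log2 fold change -0.62, adjusted p = 0.785 by edgeR). Bach2, a relative of Bach1, reached at most 3.16 CPM.

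Of the glutathione targets, 14 of 16 tested genes had a value above 0 (median 0.24). The most abundant per length, Gstm1 and Gstm2, had log2 fold changes of 0.21 and 0.26 with overlapping groups. Mgst1, a microsomal glutathione transferase, had 50.4, 51.8 and 23.0 CPM in young and 66.9, 96.7 and 70.1 CPM in aged libraries (log2 fold change 0.90, adjusted p = 0.434 by edgeR). Abcc4, an organic anion exporter, lay at 0.88 on the log2 scale (adjusted p = 0.462 by edgeR). The 4 thioredoxin targets lay between 0.31 (Txn1) and 0.40 (Prdx6), and Prdx1 and Srxn1 lay at 0.37 and 0.36. Of the 14 tested detoxification genes all were above 0 (median 0.47). Osgin1, an NRF2-responsive growth inhibitor, had 4.36, 3.16 and 3.18 CPM in young and 5.45, 6.94 and 17.6 CPM in aged libraries (log2 fold change 1.48, adjusted p = 0.390 by edgeR). Aldh3a1, an aldehyde dehydrogenase, had a log2 fold change of 1.46, with aged replicate 2 at 5.80 CPM inside the young range (adjusted p = 0.396 by edgeR). Akr1a1 and Ephx1, the most abundant of this list per length, had log2 fold changes of 0.16 and 0.35.

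The NADPH supply genes had a median of 0.64, and 6 of 6 lay above 0, but aged replicate 2 carried much of this. Tkt, of the pentose phosphate pathway, had 358, 190 and 128 CPM in young and 181, 886 and 133 CPM in aged libraries. Pgd and Me1 were also highest in aged replicate 2, at 231 and 394 CPM against at most 80.5 and 199.6 CPM in the other libraries, and Taldo1 was at 199 CPM there against at most 109 CPM. Without aged replicate 2 the median of the list was -0.20. The same library had the highest summed CPM of 8 adipocyte markers, 3579 against 455 to 1667 in young and 683 and 946 in the other aged libraries, and the part of fat cells in these values was not tested.

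In heme and iron handling, 14 of 19 tested genes lay above 0 (median 0.16). Fth1, the ferritin heavy chain, was the most abundant per length, with 1522, 1119 and 1056 CPM in young and 1992, 1789 and 1580 CPM in aged libraries (log2 fold change 0.54, adjusted p = 0.446 by edgeR). Slc11a1, a metal transporter of phagocytes, lay at 1.55 on the log2 scale (adjusted p = 0.390 by edgeR) and Cp, the ferroxidase ceruloplasmin, 0.86 (adjusted p = 0.443 by edgeR). Maf, a large Maf factor with an activation domain of its own, had a log2 fold change of 0.12 with overlapping groups.

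Hmox1 and Maff are both genes that macrophages express, so the markers of other cell types were read in the same libraries. Smooth muscle markers dominated, with a summed CPM of 31075 to 39324 in young and 27333 to 32705 in aged aorta over 6 genes. The 16 macrophage markers summed to 165, 127 and 118 CPM in young and to 541, 172 and 380 CPM in aged libraries, and 15 of 15 tested markers had a log2 fold change above 0 (median 1.41). By edgeR 12 of the 15 were higher at an unadjusted p below 0.05, as were 5.56% of all genes tested, and 0 passed adjustment. DESeq2 called 7 of them higher after adjustment, and 1.33% of all genes. In aged replicate 2 the macrophage sum was 1.05-fold the highest young library, and 9 of the 16 markers were at or below the highest young value. The share of all genes at or below it was not counted, so nothing is read from the 9. Lyz2 weighed most in the sum, at 59.2 CPM in aged replicate 2 and at most 64.7 CPM in young aorta. Of the defining markers, Adgre1 was at 4.13, Cd68 at 3.26 and Csf1r at 16.6 CPM there, against at most 3.16, 3.10 and 14.7 CPM in young aorta. Itgam, also on phagocytes, was at 3.76 CPM there and at most 1.05 CPM in young aorta. Mrc1 was at 18.2 and Cd163 at 9.91 CPM there, against at most 11.1 and 8.65 CPM in young aorta. Hmox1 in that library was 2.92-fold and Maff 2.79-fold the highest young library. In aged replicate 1, which had the highest macrophage sum, both genes were at their lowest among the aged libraries. Ftl1 was 1.29-fold the highest young library in aged replicate 2, and had 495 and 526 CPM in aged replicates 1 and 3. The 6 fibroblast markers summed to 3526 to 5550 CPM in young and to 8962, 3123 and 6466 CPM in aged libraries, with aged replicate 2 the lowest of the 6 libraries. The part of macrophages and fibroblasts in the values of Hmox1, Maff and Ftl1 was not tested.

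**Figure D5:**
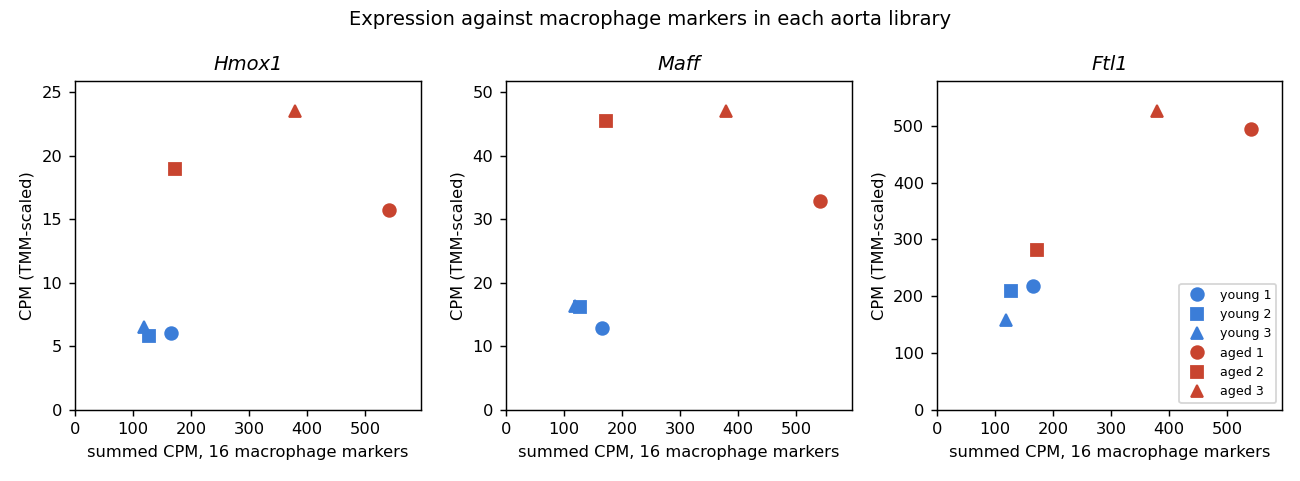
CPM of Hmox1, Maff and Ftl1 in each library against the summed CPM of 16 macrophage markers, with young libraries in blue and aged libraries in red. Aged replicate 2 (red square) has a macrophage sum of 172 CPM (165 CPM in the highest young library), with Hmox1 at 19.0 CPM, Maff at 45.4 CPM and Ftl1 at 281 CPM.

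Red cell, lymphocyte and neutrophil markers gave the following values. The 7 erythroid genes, globins among them, summed to 431 to 673 CPM in young and to 643, 392 and 878 CPM in aged aorta, with overlap and with aged replicate 2 the lowest. The 4 neutrophil markers summed to 0.124, 0.489 and 1.19 CPM in young and to 1.32, 1.51 and 2.73 CPM in aged libraries, with no overlap and with Ly6g at 0 in every library. The sum rests mostly on S100a8 and S100a9, with at most 22 and 50 counts in a library, and S100a8 alone overlapped. Of all genes tested, 7.74% were higher in every aged than in every young library, and nothing is read from the neutrophil sum. Lymphocyte markers stayed at 2.27 CPM or below in sum. The endothelial sum was 401 to 489 CPM in young and 370, 342 and 1686 CPM in aged libraries, with aged replicate 3 alone high. Cardiac markers were at 226 CPM in young replicate 1 and between 50.3 and 60.4 CPM elsewhere. The part of these cells in the members' values was not tested.

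Maff is known as stress-inducible, so 12 acute stress genes were set beside it. They had a median log2 fold change of 0.06, 6 above and 6 below 0, and edgeR called 0 after adjustment. Without adjustment 1 gene in each direction had p below 0.05 by edgeR (Junb and Atf3, 8.33% of the 12 higher). Over all genes tested 5.56% were higher and 4.82% lower at this level. DESeq2 called the same 1 gene in each direction, against 1.33% of all genes higher and 0.704% lower. Nothing particular to these genes is read from the counts. Junb, an AP-1 subunit, had 76.5, 45.0 and 78.5 CPM in young and 211, 127 and 128 CPM in aged libraries (log2 fold change 1.22, adjusted p = 0.377 by edgeR and 0.0131 by DESeq2). Atf3, also stress-inducible, had 69.2, 50.2 and 92.0 CPM in young and 33.8, 19.7 and 7.75 CPM in aged libraries (log2 fold change -1.79, adjusted p = 0.377 by edgeR and 0.0176 by DESeq2). Egr1 and Fos had log2 fold changes of -0.70 and -0.34, with Fos between 45.7 and 321 CPM over the aged libraries, and Jund lay at 0.14.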

How the data were processed

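The authors sequenced aorta RNA single-ended and deposited a table of counts per gene and a table of FPKM, with build mm10 per the labels. The aligner, the counting tool and the annotation are not given in the sources used here. The deposited counts are whole numbers with different totals, and the deposited FPKM are proportional to them (SD 0.010 on the log2 scale over 12096 genes with at least 50 counts in every library). Of 55335 identifiers, 55154 were found in GENCODE M21, from which positions on GRCm38 were taken.

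Counts were filtered (filterByExpr, minimum count 10, minimum total 15), TMM-normalized and fitted by group with edgeR 4.0.16 in R 4.3.3, with a threshold of 0.05 on the adjusted p. The standard error is the log2 fold change divided by the square root of F. DESeq2 1.42.0 and limma 3.58.1 on log2(FPKM + 1) or log2(FPKM + 0.1), whose fold changes understate low genes, were alternatives, as were RLE factors, other filters, robust fitting, a replicate block and each library left out. Leaving out young replicate 1 and aged replicate 2 together, total counts and removal of mitochondrial genes were added after seeing the data. The fit was also run on simulated data, whose outcome is not given here, and nothing is read from it. The members, lists and motifs were chosen with earlier results of these data known.

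Genes named are the members, from each list the 3 of largest change (averaging 1 CPM or more) and the 2 of highest FPKM, those DESeq2 called, and the 5 most like Hmox1 and Maff. A gene that this rule names is not reported here.

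Where 2 rows carried the symbol Itgam, the one so named in GENCODE was used. The orientation of promoter windows was checked, with 11 of 12 having the 30 bases after the start in a GENCODE transcript.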

Additional observations from a re-analysis of the deposited data

How the results depend on the processing

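The count of 0 genes by edgeR became 338 with DESeq2 and lay between 0 and 110 with 1 library left out, the latter without aged replicate 2, and the cause was not tested. The listed pathway genes called went from 0 to 3 with DESeq2 and to between 0 and 1 with 1 library left out, again without aged replicate 2. The median log2 fold change of the 10 members, 0.20, was 0.0035 and 0.014 with limma at a pseudocount of 1 and 0.1, -0.034 with total counts, and between 0.12 and 0.33 with 1 library left out. Those 3 settings moved the median of all genes to -0.12, -0.19 and -0.22, so that relative to it the members' median was 0.12, 0.21 and 0.18, against 0.18 with TMM. Members above 0, 8 with TMM, numbered 5 and 5 with limma, 4 with total counts and 7 to 9 with 1 library left out, and 7 to 9 lay above the median of all genes under all settings. The median of the heme and iron list reversed from 0.16 to -0.061, -0.072 and -0.082 with limma at a pseudocount of 1 and 0.1 and with total counts. Members at the same place in the order by FPKM were 3 of 10 by CPM, which ignores length, and 6 to 10 with 1 library left out, the fewest without young replicate 3.

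With a block for the replicate number, 0 genes were called (lowest adjusted p 0.330), the members' median was 0.23, 9 of 10 lay above 0, and Hmox1 and Maff were at 1.65 and 1.46. Correlations of replicate deviations between young and aged libraries of the same number were 0.077, 0.142 and 0.142 for numbers 1, 2 and 3. The highest of each young library with an aged library of another number was 0.025, -0.014 and 0.073. The same number was thus higher each time, but all values were low. Pairing was not assumed in the main fit and is not excluded. Nothing says that the mice came from separate litters or days. The members have 201 to 4123 counts in each library.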
